A study of Rattus norvegicus with 12 samples.

Results

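Bone from the top of the rat skull, the calvaria, was compared between 4 samples ablated with an Er:YAG laser and 4 control samples, together 8 of the 12 samples collected 6 h after surgery. In the laser group a rectangular defect of 8 by 3 mm was ablated in 3 strokes at an output of 127 mJ per pulse and 20 Hz, in rats 10 weeks old. The controls, of the same age, had their periosteum removed and their bone left without ablation, so that both groups share the surgical exposure. The other 4 samples came from a defect of the same size drilled with a bur, and they set the laser values beside another way of cutting bone. No strain, sex or genotype is given in the labels. Nor do they say whether each of the 4 samples per group is a different animal, and p-values therefore cover only the spread among samples, some of which may be technical.

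An Er:YAG laser emits infrared light that water absorbs strongly, and it removes mineralised tissue with little heating of the layer beneath. Bone is built by osteoblasts and maintained by osteocytes, former osteoblasts that lie inside the mineral and sense load. Osteocytes secrete sclerostin, the product of Sost, which blocks Wnt signalling in osteoblasts and so restrains bone formation. The marrow spaces between the plates of the calvaria hold blood-forming cells, which divide rapidly, and a sample of whole bone carries RNA of all these cells.

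RNA was labelled with Cy3 and hybridised to one-colour Agilent arrays. Of the non-control spots, 67.8% to 73.6% were well above background on the 8 arrays, and 0 were saturated. A level is given below as the log2 signal of a probe minus the 75th percentile of its array, a difference is the mean laser level minus the mean control level over 4 arrays each, and a probe was used where 4 or more of the 12 arrays had it well above background. This left 30121 of 45598 probes and, with the brightest probe standing for each gene, 22914 genes. All 11 markers of osteocytes and osteoblasts checked, among them Dmp1, Mepe, Bglap and Col1a1, were well above background on all 8 arrays. The control arrays lay on a slide of their own with its own scan, while laser replicates 1 and 2 shared a slide with 2 bur arrays and laser replicates 3 and 4 another. Spike-in control spots, which carry RNA added at labelling, had a raw log2 signal 3.47 higher on laser than on control arrays. Slide, scan and array preparation differ between the groups together with the laser, and their effects cannot be told apart here.

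Between laser-ablated and control bone, about as many genes passed the test as did not. By limma with Benjamini-Hochberg adjustment and a threshold of 0.05, 11409 of 22914 genes passed (49.8%), of which 7379 were higher (32.2%) and 4030 lower (17.6%) in laser-ablated bone. The 4 laser and 4 control values did not overlap for 11158 genes (48.7%). More than 4-fold differences were found for 844 higher and 574 lower genes. The median difference of all genes was 0.21, and it moved to between 0.03 and 0.10 under other scalings or background corrections, so small differences of either sign depend on where each array's level was set. With slide as a random block, 5877 genes were higher and 2895 lower. Where the treated arrays were limited to the slide of laser replicates 3 and 4, 5363 were higher and 2588 lower, in a fit with fewer arrays. Given such shares, a count of members that passed is read below against 32.2% higher and 17.6% lower among all genes. These shares changed with brightness. In the brightest 4583 genes 43.8% were higher and 12.3% lower. In the middle 4582 genes they were 25.1% and 24.1%, and in the dimmest 4583 genes 33.9% and 12.1%. The lists were not matched for brightness.

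The members of 57 gene lists were followed through this comparison. The lists were chosen with earlier results of these data known, so a tally of lists is a description and not a test. In 12 lists at least as many measured members were higher as were not, and these were lists of bone cells, matrix, growth factor signalling, early response, heat shock or ribosomal genes, and in 13 lists at least as many were lower as were not, those of dividing, blood, immune, fat and neural cells. Without laser replicate 1 these numbers were 7 and 8, and without control replicate 3 the second was 7. For some lists both the higher and the lower share lay below those of all genes. These were lists of osteoclast, EGF, respiratory chain, proteasome, cytokine, chemokine, NF-kB feedback, smooth muscle and skeletal muscle genes. Osteocyte genes had the highest median difference, 1.70, and erythroid genes the lowest, -2.75. Without laser replicate 1 the erythroid median was -1.89 and that of neuron genes the lowest, -2.39, and neuron genes were also lowest without control replicate 4 (-3.11 against -2.83) and with array weights (-2.59 against -2.43). The sign of the median turned under at least 1 alternative for 10 lists, and leaving out 1 array moved it by over 1.5 times for 14 others. In a bulk sample, fewer cells of a type and less RNA per cell cannot be told apart, and the levels of an array are relative to one another.

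**Figure D1:**
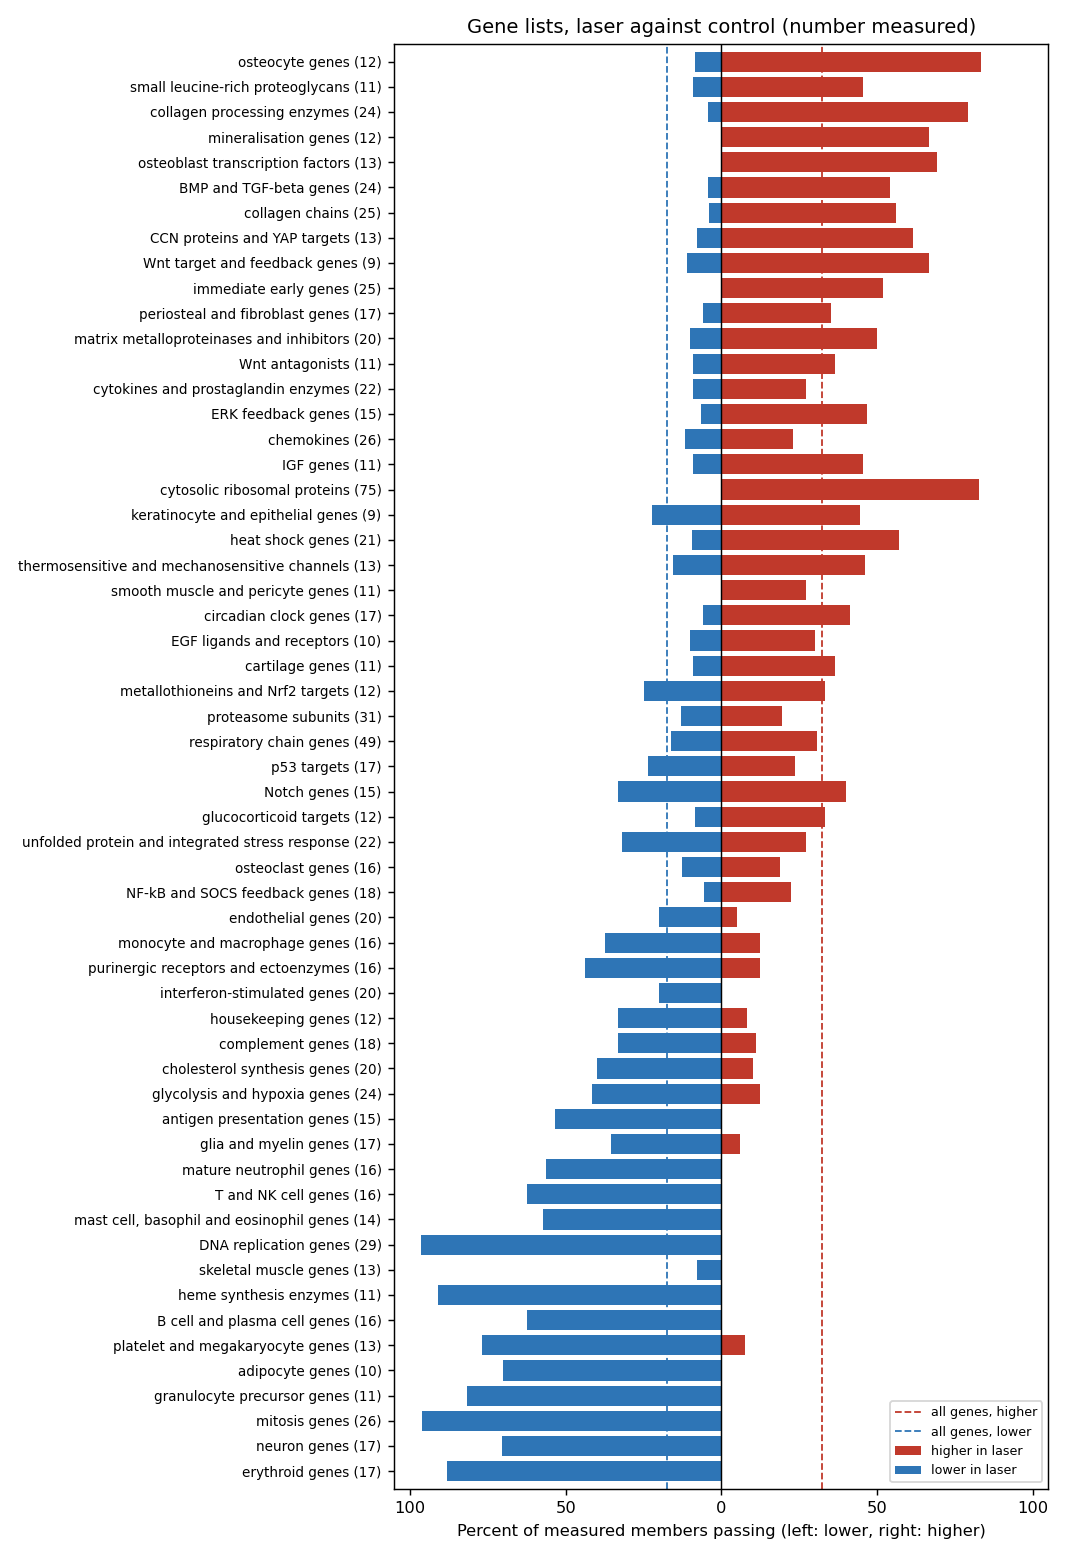
Share of the measured members of each of 57 gene lists that passed in limma, higher in laser-ablated bone to the right and lower to the left, in percent; the number measured stands in parentheses and lists are ordered by their median difference. The dashed lines mark the shares of all genes, 32.2% higher and 17.6% lower, and replication, mitosis and heme synthesis lists reach farthest to the left.

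Sost is the gene that the title of the series names. Among the 12 measured osteocyte genes Sost was the only one that passed with a lower level, while 10 passed with a higher one. Sost (probe on RGSCv3.4 chromosome 10, 91026551 to 91026610) had levels of -3.03, -3.21, -3.47 and -3.50 on laser replicates 1 to 4 and -1.94, -3.08, -2.41 and -2.57 on control replicates 1 to 4. The 2 groups overlapped, because control replicate 2 lay within the laser range. The difference was -0.80 (SE 0.30, limma adjusted p = 0.0460), which is 1.74-fold lower, and a two-sided exact permutation test over all 70 assignments of the 8 arrays gave p = 0.0571, where 0.0286 is the smallest possible. The call was lost without laser replicate 1, 2, 3 or 4, without control replicate 1, 3 or 4 and without bur replicate 3, with differences of -0.89 to -0.61 and adjusted p of 0.0554 to 0.121. It was also lost with slide as a random block (adjusted p = 0.106), with normexp background correction (-0.37), on the deposited quantile-normalized values (-0.48) and with no filter on dim probes (adjusted p = 0.0677). The authors' deposited table of this comparison gives Sost a log2 fold change of -0.48 with an adjusted p of 0.0316. Against bur-drilled bone the difference was -1.68 (SE 0.30), which did not pass (adjusted p = 0.248).

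The 10 osteocyte genes that passed in the opposite direction were led by Dmp1. Dmp1, an acidic phosphoprotein that nucleates mineral and is needed for osteocyte maturation (probe on RGSCv3.4 chromosome 14, 6637483 to 6637542), had levels of 5.68, 5.71, 6.45 and 6.76 on the laser arrays and 3.47, 2.93, 3.23 and 3.45 on the control arrays. The lowest laser value lay above the highest control value, and laser replicates 3 and 4 were the highest. The difference of 2.88 (SE 0.25, limma adjusted p = 7.67e-05) corresponds to 7.36-fold. Slc13a5, which carries citrate, a component of bone mineral, into cells, was 5.13-fold higher, with laser levels of 6.11 to 7.17 against 4.02 to 4.62. Mepe, a matrix phosphoglycoprotein that regulates mineralisation, was 3.10-fold higher, with 6.65 to 7.24 against 4.94 to 5.55. Their mean differences from bur-drilled bone were 0.07 and 0.05, whereas Dmp1 was 1.93 above it without passing (SE 0.25, adjusted p = 0.114).

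Of 13 transcription factors of the osteoblast lineage 9 were higher and 0 lower (median 0.97). Runx2, the factor that commits cells to the osteoblast fate, had levels of 3.23, 2.75, 2.95 and 3.11 on laser arrays and 1.07, 0.42, 0.88 and 0.95 on control arrays. All 4 laser values exceeded all control values by more than 1 on the log2 scale, and the difference was 2.18 (SE 0.17, limma adjusted p = 6.37e-05). Dlx5, a homeobox activator of osteoblast genes, was 3.39-fold higher. Dlx3, a homeobox factor of bone and hair, had the largest rise of this list (3.01, SE 0.88), and its laser levels split by slide. They were 8.75, 8.71, 5.36 and 5.59, against 3.82 to 4.53 on the control arrays. The difference was 4.64 with laser replicates 1 and 2 alone and 1.38 with replicates 3 and 4 alone. The bur arrays did not split in the same way, with levels of 8.40, 5.81, 5.47 and 5.32.

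Among 12 genes of mineralisation 8 were higher and 0 lower (median 1.11). Smpd3, a sphingomyelinase needed for bone mineral to form, was 4.70-fold higher, with laser levels of 6.002 to 6.72 against control levels of 4.06 to 4.50. Enpp1, which makes the mineral inhibitor pyrophosphate, also rose, 2.21-fold, and so did Alpl, the alkaline phosphatase that removes it, 3.32-fold. A second Alpl probe did not pass, and the mean of both probes gave a difference of 0.98. Bglap, which encodes osteocalcin, a protein made by mature osteoblasts, had levels of 10.33, 10.54, 10.35 and 10.31 and 9.64, 9.26, 9.23 and 9.22 on laser and control arrays. The groups did not overlap and differed by 1.05 (SE 0.15), but only by 0.31 after quantile normalization, which pulls the brightest probes of all arrays to the same values. Mgp, an inhibitor of calcification in soft tissue, did not pass (difference 1.08, SE 0.74). Its laser levels were 9.47, 9.68, 8.99 and 6.04, and without laser replicate 4 the gene passed with a difference of 1.91.

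**Figure D2:**
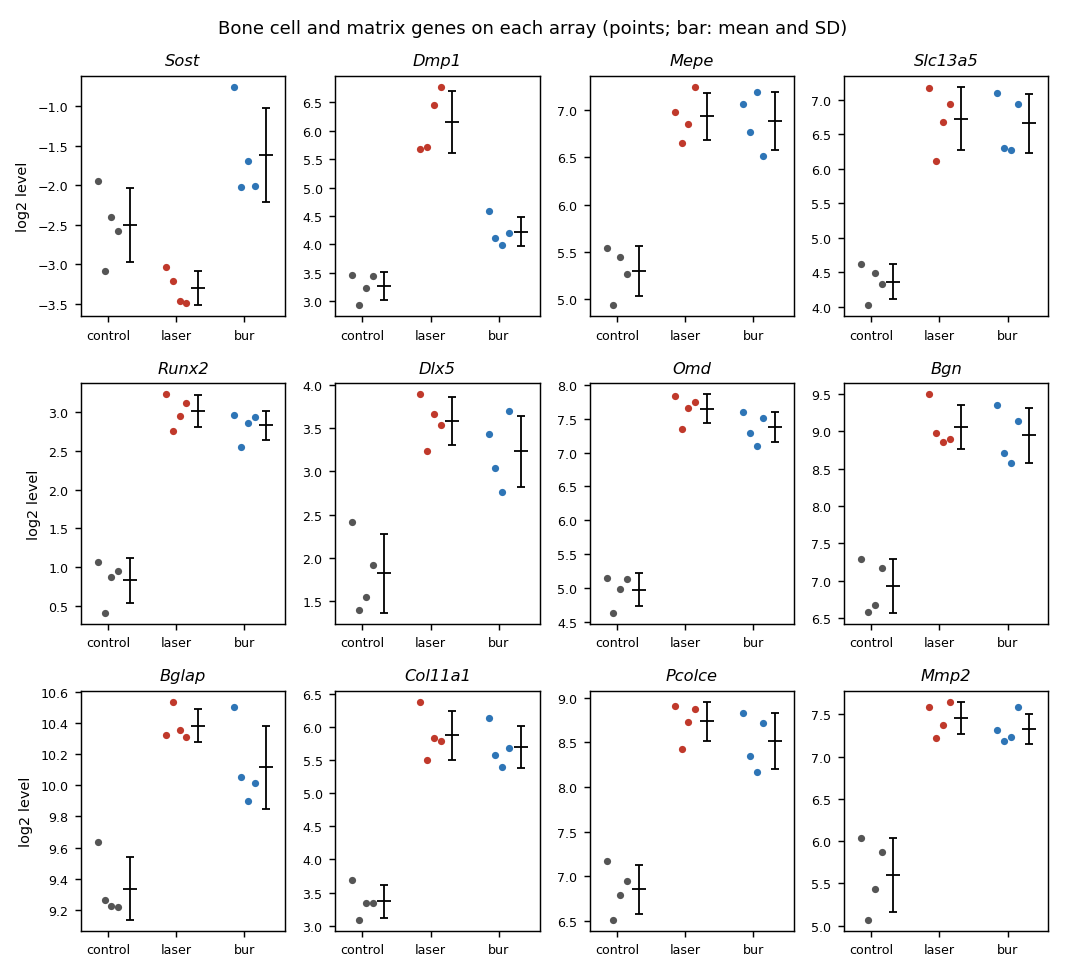
Log2 level (signal relative to the 75th percentile of the array) of 12 bone genes on each control, laser and bur array, with the mean and SD of 4 arrays beside the points. Dmp1 levels on laser arrays, 5.68 to 6.76, lie above those on control arrays, 2.93 to 3.47, whereas the Sost levels of the 2 groups overlap.

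Of 11 small leucine-rich proteoglycans, which organise collagen fibrils, 5 were higher and 1 lower (median 1.25). Omd, osteomodulin, a proteoglycan bound to bone mineral, had levels of 7.83, 7.34, 7.66 and 7.74 on laser arrays and 5.15, 4.64, 4.98 and 5.13 on control arrays. Every laser value was above every control value, with a difference of 2.67 (SE 0.17, limma adjusted p = 3.75e-05). Bgn, biglycan, was 4.37-fold higher, and the second probe of either gene rose as well. The count of this list rested on single arrays. It was 3 higher without laser replicate 1 or 2 or without control replicate 2 or 3, and 10 higher without laser replicate 4.

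Of 25 collagen chains 14 were higher and 1 lower (median 0.94). Col1a1, the main chain of bone collagen, had laser levels of 9.96 to 10.19 and control levels of 9.06 to 9.50, a 1.76-fold rise that was lost with quantile normalization (difference 0.10). Larger rises were found for chains of minor fibrillar collagens. Col11a1, which sets fibril diameter, was 5.71-fold higher, with laser levels of 5.50 to 6.38 against 3.09 to 3.69, and Col24a1, a collagen of forming bone, was 6.14-fold higher. Enzymes that modify and cross-link collagen were higher for 19 of 24 and lower for 1 (median 1.16). Pcolce, which enhances removal of the procollagen C-propeptide, had laser levels of 8.91, 8.42, 8.73 and 8.88 and control levels of 7.17, 6.51, 6.79 and 6.94. These ranges lay more than 1 apart on the log2 scale. Lox, the lysyl oxidase that starts cross-linking, was 3.53-fold higher and all 4 of its probes rose, P4ha1, a prolyl hydroxylase, was 3.97-fold higher, and Adamts14, a procollagen N-proteinase, was 4.08-fold higher.

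Of 20 matrix metalloproteinases and their inhibitors 10 were higher and 2 lower (median 0.70). Mmp2, a gelatinase of mesenchymal cells, was 3.62-fold higher, Mmp16, a membrane-bound metalloproteinase, 3.04-fold by its brightest probe with 3 further probes also higher, and Timp1, a secreted inhibitor, 3.03-fold higher. Mmp8, the collagenase stored in neutrophil granules, went the other way. Its levels were -1.03, -0.11, 0.03 and 0.25 on laser arrays and 1.59, 2.16, 1.64 and 2.20 on control arrays, a 4.32-fold fall (limma adjusted p = 0.000863), and neutrophil genes fell too, as given below. The part of changed cell numbers in these values was not tested.

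Of 16 osteoclast genes 3 were higher and 2 lower (median 0.02, or -0.25 to 0.14 over the alternatives). Acp5, tartrate-resistant acid phosphatase, the classical osteoclast marker, had laser levels of 5.46, 6.04, 6.36 and 6.74 and control levels of 5.87, 5.70, 6.34 and 5.94. They overlapped, and the difference of 0.19 (SE 0.32) did not pass (adjusted p = 0.636). Ctsk, cathepsin K, which degrades collagen in the resorption pit and is also made by periosteal cells, was 1.89-fold higher. Tnfrsf11b, osteoprotegerin, the decoy receptor that blocks osteoclast formation, was 4.27-fold higher, with laser levels of 2.32, 2.94, 3.53 and 3.93 against 0.81 to 1.44. The number of lower members was 1 without control replicate 1 or 2 and 3 without laser replicate 4, and it was 4 with quantile normalization and 6 with laser replicates 1 and 2 alone.

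Of 11 Wnt antagonists 4 were higher (36.4%, near the 32.2% of all genes) and 1, Sost, was lower (median 0.63). Dkk1, a secreted inhibitor that binds Wnt co-receptors, had laser levels of 2.36, 2.296, 2.70 and 2.86 and control levels of 1.02, 0.81, 1.12 and 1.30. The groups did not overlap and differed by 1.49 (SE 0.18, limma adjusted p = 0.000204), and a second probe rose as well. Frzb, a secreted Frizzled-related protein that binds Wnt ligands, was 2.46-fold higher. Of 9 Wnt target and feedback genes 6 were higher and 1 lower (median 0.90). Ccnd1, cyclin D1, was 3.27-fold higher, and Bambi, a pseudoreceptor, 2.86-fold higher. The lower one was Lef1, a transcription factor of the pathway that lymphoid precursors also express, at -2.99, -2.06, -1.49 and -1.35 on laser arrays and -0.33, 0.0, 0.22 and -0.10 on control arrays. It fell by 1.92 (SE 0.42), with a difference of -1.29 after normexp background correction. Lists of B and T cells fell too, as given below, and the part of changed cell numbers in the Lef1 values was not tested.

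Among 24 BMP and TGF-beta genes 13 were higher and 1 lower (median 0.94). Bmp3, a bone-resident ligand that restrains osteogenic BMPs, had laser levels of 2.98, 2.55, 2.81 and 3.51 and control levels of 0.51, -0.07, -0.04 and 0.36. No control value reached the lowest laser value, and the difference was 2.77 (SE 0.25, limma adjusted p = 8.88e-05). Bmp7, an osteogenic ligand, was 5.11-fold higher, or 1.74 on the log2 scale with normexp. Tgfb1, a ligand stored in bone matrix and made by many blood cells, was the 1 that fell, 1.65-fold. Of 13 CCN proteins and YAP targets 8 were higher and 1 lower (median 0.93). Ccn4, a Wnt-induced matrix protein of osteoblasts, was 4.38-fold higher, Ccn1, an immediate early matrix protein, 3.27-fold and Amotl2, an angiomotin of the Hippo pathway, 2.35-fold higher. The CCN and YAP list held its count within 1.5 times in every fit without 1 array. Its median levels on laser replicates 3 and 4, 2.18 and 1.13, nevertheless lay within the control range of 1.04 to 2.49.

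Genes of the IGF, EGF and Notch systems moved less uniformly. Of 11 IGF genes 5 were higher and 1 lower (median 0.57, or 0.31 to 0.95 with 1 array left out), among them Igf2r, which clears IGF2 (2.09-fold), and Igfbp1, a secreted binding protein (2.11-fold). Without laser replicate 1 or 2 or control replicate 2 or 3, 3 members were higher. Of 10 EGF ligands and receptors 3 were higher (30%, near the 32.2% of all genes) and 1 lower (median 0.43). Hbegf, a membrane-anchored ligand shed on injury, was 2.02-fold higher and the receptor Erbb2 2.50-fold higher. Notch genes moved both ways, 6 of 15 higher and 5 lower (median 0.10, its sign changing with the scaling). Notch1, a receptor abundant in blood precursors and endothelium, fell 1.92-fold, with laser levels of 0.16 to 0.67 against 1.18 to 1.54. Leaving out single arrays gave 3 to 6 Notch genes higher and 2 to 5 lower, with 3 higher without laser replicate 1 or 2, 4 higher without laser replicate 3 or control replicate 2, 3 or 4, and 2 or 3 lower without any of these or without control replicate 1 or bur replicate 2 or 4.

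Heat shock proteins are chaperones whose genes are switched on within minutes of protein damage by the factor Hsf1, which binds repeats of the pentamer nGAAn upstream of them. Of 21 measured, 12 were higher and 2 lower (median 0.53). The 250 bases before the start of 17 of these genes were taken from RefSeq (GRCr8) and were searched for 3 such units in a row that alternate in orientation, GAA and TTC with NN between neighbouring units, starting with either one. The 2 forms read as each other on the opposite strand, and overlapping matches were counted. The counts over all genes take every promoter on record, and those of heat shock genes take 1 per gene. Of 33469 promoters of all genes 222 held a match (0.663%). Of the 17 heat shock promoters 4 did (23.5%), those of Hspa8, Hsph1, Hspd1 and Hspe1. Hspd1 and Hspe1 start next to each other on opposite strands, and their windows overlap and share the same matched bases. With overlapping windows merged, 176 of 28294 regions (0.622%) and 3 of 16 heat shock regions (18.8%) held a match. Hspa1a, the heat shock gene with the largest rise, had 0 matches in its window, as had Stip1, which fell. Each such window rests on 1 annotated start, and bases outside it were not searched, so 0 matches does not mean that a gene lacks the motif. Whether a match goes with a rise was not tested. The windows of Hspa8 and Hsph1, members with such a match that rose, are shown 5′ to 3′ with the match in capitals. Both lie on the plus strand, Hspa8 at chr8:50080264-50080513 and Hsph1 at chr12:10427118-10427367.
Hspa8: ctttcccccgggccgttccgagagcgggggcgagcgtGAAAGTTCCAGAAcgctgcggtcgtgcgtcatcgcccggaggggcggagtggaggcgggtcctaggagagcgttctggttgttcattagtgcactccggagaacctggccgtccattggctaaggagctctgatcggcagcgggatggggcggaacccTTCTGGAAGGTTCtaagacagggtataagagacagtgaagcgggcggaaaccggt
Hsph1: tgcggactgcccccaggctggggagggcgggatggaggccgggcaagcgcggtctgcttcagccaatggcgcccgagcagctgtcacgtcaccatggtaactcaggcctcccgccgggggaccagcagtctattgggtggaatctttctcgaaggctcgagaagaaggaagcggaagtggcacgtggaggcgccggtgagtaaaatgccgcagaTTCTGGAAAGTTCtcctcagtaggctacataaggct
The Hspa8 window has 2 matches, which begin 213 and 55 bases before the start, and the Hsph1 window has 1, which begins 36 bases before it. A match describes the letters of the window and not a bound site.

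Hspa1a, the stress-inducible Hsp70 chaperone (probe on RGSCv3.4 chromosome 20, 3958289 to 3958348), had the largest rise of any gene described here. Its levels were 4.53, 4.56, 5.64 and 6.14 on laser arrays, -0.35, 0.84, 0.64 and 0.97 on control arrays and 0.998, 1.503, 1.58 and 1.31 on bur arrays. Laser replicates 3 and 4 were the highest, and every laser value lay at least 3 above every control value on the log2 scale. The difference from control was 4.69 (SE 0.39, limma adjusted p = 7.24e-05), 25.8-fold, and a second probe was also higher. The difference was 4.02 with laser replicates 1 and 2 alone and 5.36 with replicates 3 and 4 alone. It was 3.73 on the deposited quantile-normalized values, where another probe stands for a gene whose brightest one is missing. The authors' deposited table of this comparison gives no value for the Hspa1a probe printed here. Hspa1a was also 3.87 above bur-drilled bone (SE 0.39, limma adjusted p = 0.0174).

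The constitutive Hsp70, Hspa8, had laser levels of 8.78, 8.65, 8.95 and 8.97 and control levels of 7.99, 7.99, 7.77 and 7.85. The groups did not overlap and differed by 0.94 (SE 0.11), a rise that 2 of its 3 further probes shared and 1 did not, and that was lost with quantile normalization (0.35). Hsph1, an Hsp110 that serves Hsp70 as nucleotide exchange factor, was 1.93-fold above control and 1.57 above bur on the log2 scale, where it did not pass (SE 0.22, adjusted p = 0.117). Its bur levels, -2.12 to -1.52, lay below its control levels of -1.40 to -1.01. Cryab, a small heat shock protein that holds unfolded proteins in solution, was 4.32-fold higher (laser 5.35 to 5.89, control 3.12 to 4.31). One of the 2 members that fell was Stip1, which links Hsp70 to Hsp90, at 1.38-fold lower (SE 0.13 on the log2 scale), and its call was lost on the deposited normalized values and with laser replicates 3 and 4 alone (-0.40 and -0.41).

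Genes of the unfolded protein and integrated stress responses moved both ways, 6 of 22 higher and 7 lower, with a median of 0.04 whose sign changed with the scaling. Atf4, the central factor of the integrated stress response, was 1.99-fold higher and Xbp1, a factor of the unfolded protein response and of secretory cells, 1.85-fold higher. Ppp1r15a, which ends the integrated stress response, was 2.02-fold lower. Hspa5, the main chaperone of the endoplasmic reticulum, had laser levels of 4.90, 4.50, 4.79 and 4.95 and control levels of 4.74, 4.68, 4.82 and 4.96, which overlapped (difference -0.01, SE 0.14, adjusted p = 0.949). Without laser replicate 2, 4 members were lower. Metallothioneins and Nrf2 targets had 4 of 12 higher (33.3%, near the 32.2% of all genes) and 3 lower (25%). Their median was 0.25, or -0.01 with laser replicates 1 and 2 alone. The number lower was 1 without laser replicate 1 or 2, control replicate 2 or 3, or bur replicate 1. Mt1, a metal-binding protein, was 2.28-fold higher but lost its call with quantile normalization (0.67), and Gpx2, a glutathione peroxidase, was 4.70-fold higher, or 1.52 on the log2 scale with normexp. Of 17 p53 targets 4 were higher and 4 lower (median 0.17, or -0.01 without control replicate 2), with the cell cycle inhibitor Cdkn1a 2.62-fold and the damage-response gene Gadd45g 3.07-fold higher by their brightest probes, while a second probe of each did not pass.

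Immediate early genes, which respond to a stimulus without new protein synthesis, were higher for 13 of 25 members and lower for 0 (median 0.90, or 0.50 to 1.03 with 1 array left out). Egr1, a zinc finger factor induced by ERK signalling, had levels of 2.96, 2.93, 3.31 and 3.61 on laser arrays, 1.22, 0.90, 1.72 and 1.28 on control arrays and 1.78, 1.95, 2.11 and 1.60 on bur arrays. The laser values lay above all control and bur values. The difference from control was 1.92 (SE 0.21, limma adjusted p = 0.000137), and that from bur, 1.34 (SE 0.21), did not pass (adjusted p = 0.126). Klf4, a Krüppel-like factor, was 2.90-fold higher (laser 3.20 to 3.61, control 1.84 to 2.04), whereas Ier2 differed by 0.27 (SE 0.13) and did not pass. Of 15 genes that feed back on ERK signalling 7 were higher and 1 lower (median 0.60, or 0.18 without control replicate 4, 0.35 without laser replicate 2 and 0.03 with normexp). Spry1, a Sprouty inhibitor, had laser levels of 1.91, 1.76, 2.77 and 2.76 against 0.84 to 1.19, with replicates 3 and 4 the highest, and rose 2.42-fold. Spry4 rose 4.26-fold, or by 1.46 on the log2 scale on the deposited normalized values and 0.95 with normexp.

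**Figure D3:**
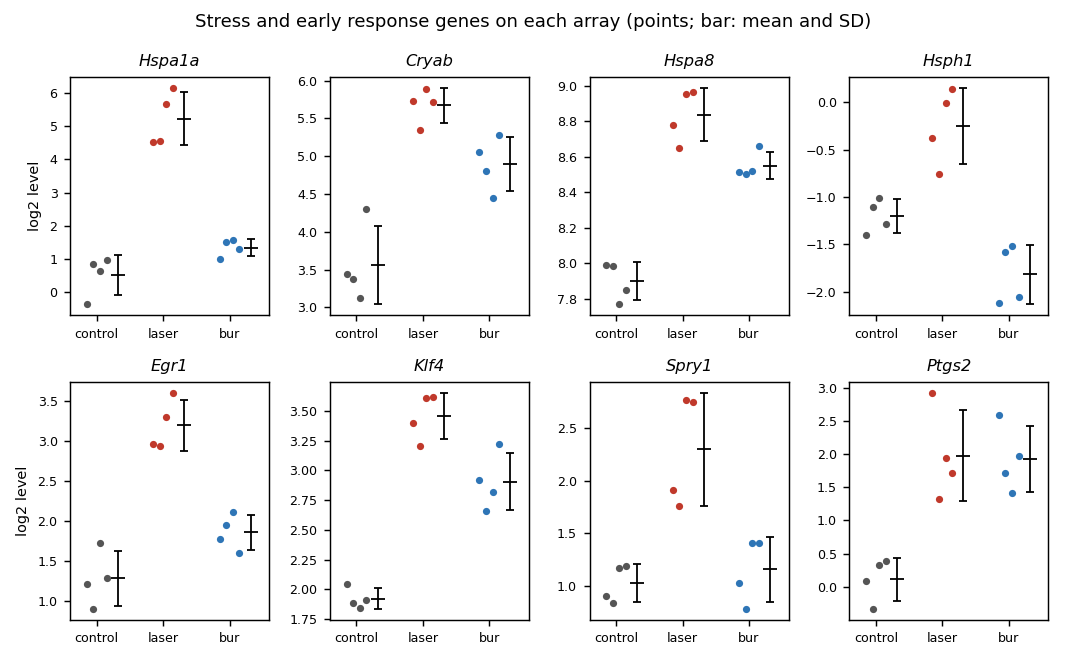
Log2 level (signal relative to the 75th percentile of the array) of 8 stress and early response genes on each control, laser and bur array, with the mean and SD of 4 arrays. Hspa1a lies at 4.53 to 6.14 on laser arrays and no higher than 1.58 on bur arrays.

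Circadian clock genes had 7 of 17 higher and 1 lower (median 0.49), the lower one being Bmal1, the activator of the clock loop, at 2.36-fold lower (laser -2.67 to -2.14, control -1.59 to -0.99). Without bur replicate 2, 3 members were lower. The labels do not give the time of day of the surgery. Of 12 glucocorticoid targets 4 were higher (33.3%, near the 32.2% of all genes) and 1 lower (median 0.09, its sign changing with the scaling). Klf9, a direct target of the receptor, was 2.48-fold higher. Without control replicate 3, 2 members were lower.

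Members of lists of inflammatory signals passed less often than all genes. Of 22 cytokines and prostaglandin enzymes 6 were higher (27.3%) and 2 lower (9.1%), both below the 32.2% and 17.6% of all genes. Their median was 0.62, or 0.38 to 0.78 with 1 array left out. Ptgs2, the inducible cyclooxygenase, had levels of 2.92, 1.32, 1.94 and 1.71 on laser arrays and 0.08, -0.33, 0.33 and 0.38 on control arrays, so that the groups did not overlap. It rose by 1.86 (SE 0.34, limma adjusted p = 0.00157), and 2 further probes rose as well. Ptgis, prostacyclin synthase, was 3.62-fold higher, while Ptgs1, the constitutive cyclooxygenase, abundant in platelets, was 2.72-fold lower. Chemokines had 6 of 26 higher (23.1%) and 3 lower (11.5%), again below the shares of all genes. Their median was 0.59, or 0.37 to 0.65 with 1 array left out. The number lower was 1 without laser replicate 1 or 4 or control replicate 1 or 2, and 4 were higher without control replicate 2. Cxcl16, a membrane-bound chemokine, was 1.73-fold higher. Ccl22, a chemokine of macrophages and dendritic cells, was 5.30-fold higher, at 6.34, 5.84, 3.79 and 3.92 on laser arrays against 2.29 to 3.11. Laser replicates 1 and 2, which shared a slide, were the higher pair, and the difference was 3.52 with them alone, 1.29 with replicates 3 and 4 alone and 0.95 on the deposited normalized values, and 1.43 as the mean of its probes. Of its 2 further probes 1 rose and 1 did not pass.

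Feedback genes of NF-kB and cytokine signalling showed 4 of 18 higher (22.2%) and 1 lower (5.6%), also below the shares of all genes. Their median was 0.00, and its sign changed with the scaling. Socs3, which ends signalling of interleukin 6 type cytokines, was 2.09-fold higher (laser 3.98 to 4.35, control 2.39 to 3.59), and Socs2, which restrains growth hormone signalling, 1.75-fold higher. Without laser replicate 1 or control replicate 2, 0 members were lower. Of 20 interferon-stimulated genes 4 were lower (20%, near the 17.6% of all genes) and 0 higher. Their median was -0.13, or -0.16 to -0.07 with 1 array left out. Among the lower ones were Irf7 (1.96-fold) and Irf9 (1.59-fold), transcription factors of the interferon response. The number lower was 2 without laser replicate 1, without control replicate 2, 3 or 4, or without bur replicate 4. Complement genes had 2 of 18 higher and 6 lower (median -0.22, or -0.38 to -0.16 with 1 array left out), or 3 lower without control replicate 4. C4a, a component of the classical pathway, was 2.74-fold lower.

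Genes of dividing cells fell almost without exception. Of 29 DNA replication genes 28 were lower and 0 higher (median -1.43), and of 26 mitosis genes 25 were lower and 0 higher (median -2.22). Rrm2, a subunit of ribonucleotide reductase, had laser levels of 2.21, 4.02, 4.07 and 4.05 and control levels of 5.16, 5.89, 5.53 and 5.26. Laser replicate 1 lay far below the others, and the groups did not overlap, with a difference of -1.87 (SE 0.50, limma adjusted p = 0.0104). Mcm6, of the replicative helicase, was 4.80-fold lower. Mki67, the Ki-67 antigen, had laser levels of 0.73, 3.72, 3.67 and 3.42 against control levels of 5.06 to 5.997. It fell by 2.61 on the log2 scale (SE 0.67), with a difference of -1.89 without laser replicate 1, and all 4 of its probes were lower. With laser replicates 3 and 4 alone the difference of Mki67 was -1.95, and 15 replication and 16 mitosis genes were lower. Laser replicate 1 was also lowest for Top2a, a topoisomerase of dividing cells, at -2.14, -0.02, 0.23 and 0.04 on laser arrays and 2.12 to 2.89 on control arrays. The median level of the mitosis list was -1.75 on laser replicate 1, 0.10 to 0.31 on the other laser arrays and 1.49 to 2.44 on the control arrays.

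Genes of the blood-forming cells that divide in marrow fell too. Of 17 erythroid genes 15 were lower and 0 higher (median -2.75), and of 11 enzymes and transporters of heme synthesis 10 were lower (median -1.49). Gata1, the transcription factor of red cells and megakaryocytes, had laser levels of -3.77, -0.35, -0.86 and -0.98 and control levels of 1.23, 1.93, 1.51 and 1.24. Laser replicate 1 was the lowest of the laser arrays, and the groups did not overlap. The difference was -2.97 (SE 0.71, limma adjusted p = 0.00593), -2.21 without laser replicate 1 and -2.29 with normexp. Gypc, glycophorin C of the red cell membrane, was at -1.72, -0.90, -1.07 and -1.45 on laser arrays against 0.69 to 1.41 (4.79-fold lower). Fech, which inserts iron into heme, was 5.13-fold lower, Uros, uroporphyrinogen synthase, 6.43-fold, and Alad, of the second step of heme synthesis, 2.81-fold lower. The median level of the erythroid list was -2.58 on laser replicate 1, 0.54 to 1.30 on the other laser arrays, 2.06 to 3.00 on the control arrays and -0.70 to 0.99 on the bur arrays.

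Granulocyte precursors were lower by 9 of 11 genes and higher by 0 (median -1.90). Ngp, a granule protein, had laser levels of 0.19, 1.35, 1.19 and 1.66 and control levels of 3.62, 4.0, 3.55 and 4.08. The highest laser value lay well below the lowest control value, and the difference was -2.71 (SE 0.48, limma adjusted p = 0.00134). Mpo, myeloperoxidase, was 5.14-fold lower. Mature neutrophil genes were lower for 9 of 16 and higher for 0 (median -0.79), with Cd177, a neutrophil surface protein, 5.35-fold and Ncf1, of the NADPH oxidase, 2.56-fold lower. S100a8, the alarmin that fills the cytosol of neutrophils, did not follow. Its levels were 6.97, 7.69, 7.95 and 8.09 on laser arrays and 8.08, 8.11, 7.88 and 7.70 on control arrays, with a difference of -0.27 (SE 0.30, adjusted p = 0.472), although it passed as lower with quantile normalization (-0.83) and on the deposited normalized values (-0.76).

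Monocyte and macrophage genes had the median closest to 0 among the blood cell lists, with 2 of 16 higher and 6 lower (median -0.07, or -0.11 to -0.03 with 1 array left out). Csf1r, the receptor for macrophage colony-stimulating factor, was 1.70-fold lower (laser -0.47 to -0.17, control 0.26 to 0.58), and Cd163, a scavenger receptor of resident macrophages, 2.43-fold lower. Fcgr1a, a high-affinity Fc receptor, had overlapping levels of 3.88 to 4.07 and 3.79 to 3.94 and did not pass (difference 0.10, SE 0.21). Platelet and megakaryocyte genes had 10 of 13 lower and 1 higher (median -1.72). Itga2b, an integrin of platelets, had laser levels of -2.58, -0.40, -0.64 and -1.21 and control levels of 1.17, 1.73, 1.38 and 1.55, with replicate 1 again the lowest, and fell 6.34-fold. P2ry12, the ADP receptor of platelets, was 3.08-fold lower. Without control replicate 2, 6 members of this list were lower.

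Lymphoid and mast cell genes fell too, with counts that depended on single arrays. B cell and plasma cell genes had 10 of 16 lower and 0 higher (median -1.56), but 6 without laser replicate 1 or control replicate 2 and 5 without control replicate 3. Cd22, a B cell lectin, had laser levels of 2.27, 4.35, 4.15 and 4.24 against control levels of 5.55 to 6.25 and was 4.41-fold lower, with 2 further probes lower and a mean difference of -1.53 over its probes. T and NK cell genes had 10 of 16 lower and 0 higher (median -0.99), but 6 without laser replicate 2 or control replicate 3 or 4. Mast cell, basophil and eosinophil genes had 8 of 14 lower and 0 higher (median -1.12), or 5 without laser replicate 1, with Ms4a2, a chain of the IgE receptor, 3.69-fold lower. Antigen presentation genes had 8 of 15 lower and 0 higher (median -0.59). Tap2, a peptide transporter for MHC class I loading, was 3.83-fold lower and its second probe fell, RT1-Bb, a rat MHC class II chain, was 1.83-fold lower, and Cd74, the invariant chain, had overlapping levels (difference 0.24, SE 0.19, adjusted p = 0.297).

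**Figure D4:**
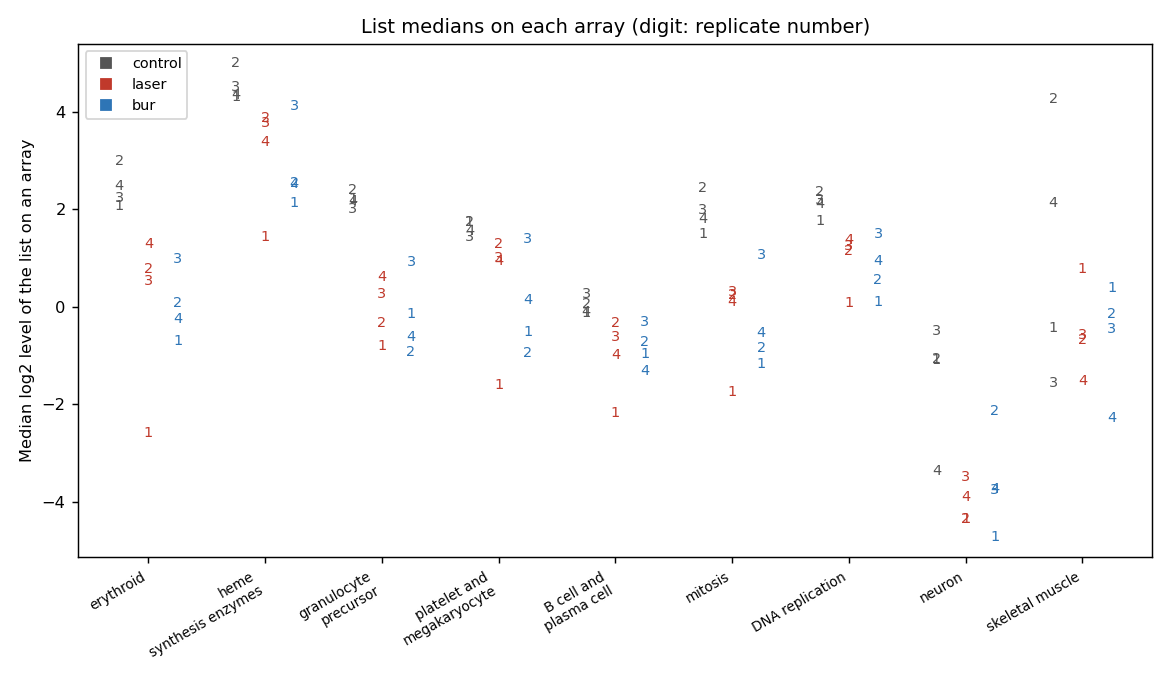
Median log2 level of the members of 9 gene lists on each array, drawn as the replicate number and coloured by group. Laser replicate 1 lies lowest for erythroid, heme, platelet and mitosis genes, and control replicates 2 and 4 lie highest for skeletal muscle genes.

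Lists of other tissues differed among the control samples. Skeletal muscle genes had a median level of 4.26 on control replicate 2 and 2.14 on control replicate 4, against -0.43 and -1.56 on control replicates 1 and 3 and -1.52 to 0.77 on the laser arrays. Tnnc2, fast skeletal troponin C, stood at 0.38, 6.71, 0.27 and 5.39 on the control arrays and 1.32, 0.84, -0.67 and 0.25 on the laser arrays and did not pass (difference -2.75, SE 1.37, adjusted p = 0.115), although it did without control replicate 1 (-3.69) or control replicate 3 (-3.72). Of 13 muscle genes 1 was lower, Tnnt1 (1.65-fold), and 0 higher (median -1.43, or -2.70 to -0.72 with 1 array left out), or 3 lower without control replicate 1 or 3. Neuron genes had 12 of 17 lower and 0 higher (median -2.47), with median levels of -1.08, -1.07, -0.49 and -3.37 on control replicates 1 to 4 and -4.35 to -3.49 on the laser arrays. Control replicate 4 thus lay near the laser arrays, and 4 members were lower with laser replicates 1 and 2 alone and 3 with replicates 3 and 4 alone.

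Gad1, which makes the transmitter GABA (probe on RGSCv3.4 chromosome 3, 52829951 to 52830010), had the largest fall described here. Its levels were 1.75, 2.04, -0.34 and -1.24 on the control arrays and -4.94, -4.31, -3.22 and -5.37 on the laser arrays, and it was well above background on 3 of the 4 laser arrays. The difference was -5.01 (SE 1.104, limma adjusted p = 0.00394), -5.61 without control replicate 4, -3.46 on the deposited normalized values and -2.66 with normexp. Glia and myelin genes had 6 of 17 lower and 1 higher (median -0.76, or -1.22 to -0.39 with 1 array left out), or 10 lower without control replicate 4. Adipocyte genes had 7 of 10 lower and 0 higher (median -1.79), with Pparg, the regulator of fat cell formation, 2.04-fold lower (laser -0.30 to 0.40, control 0.78 to 1.20). The labels do not say whether tissue next to the bone was collected with it, and its part in these values was not tested.

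Endothelial genes had 1 of 20 higher and 4 lower (20%, near the 17.6% of all genes). Their median was -0.03, or -0.24 to 0.19 over the alternatives. Tie1, an endothelial receptor, was 3.82-fold lower, a difference of -1.93 that was -1.12 on the deposited normalized values and -0.77 with normexp. The number lower was 2 without laser replicate 1 or control replicate 1 or 4. Smooth muscle and pericyte genes had 3 of 11 higher and 0 lower (median 0.51, or 0.33 to 0.65 with 1 array left out), or 5 without laser replicate 4, with Cspg4, a pericyte proteoglycan, 2.90-fold higher. Periosteal and fibroblast genes had 6 of 17 higher (35.3%, near the 32.2% of all genes) and 1 lower. Their median was 0.89, or 0.51 to 0.91 with 1 array left out. Prrx1, a homeobox factor of periosteal progenitors, was 2.73-fold higher (laser 4.37 to 4.75, control 2.29 to 3.78), and Fap, a protease of activated fibroblasts, 2.39-fold higher. Cartilage genes had 4 of 11 higher (36.4%, again near that share) and 1 lower (median 0.37, or 0.15 to 0.61 with 1 array left out). The lower one was Sox6 (2.02-fold), a factor of chondrocytes that red cell precursors also express. Keratinocyte and epithelial genes had 4 of 9 higher and 2 lower (median 0.55), with Krt10, a keratin of upper epidermis, 1.89-fold higher and Cdh1, E-cadherin, which erythroid precursors also carry, 4.62-fold lower.

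Cytosolic ribosomal protein genes were higher for 62 of 75 and lower for 0 (median 0.57). Rps23 had laser levels of 7.75, 7.82, 7.91 and 7.67 and control levels of 6.85, 6.67, 6.51 and 6.49. These did not overlap, and the difference was 1.16 (SE 0.12, limma adjusted p = 0.000116). Rpl27 was 2.27-fold higher. The count changed with the scaling, and these probes are among the brightest on the arrays. With median scaling 40 were higher and 0 lower, with quantile normalization 8 and 8 (median 0.02), and on the deposited normalized values 13 and 12 (median 0.04). In the brightest 4583 of all genes the median difference was 0.32, and in the dimmest 4583 it was 0.56, against 0.01 in the middle 4582.

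**Figure D5:**
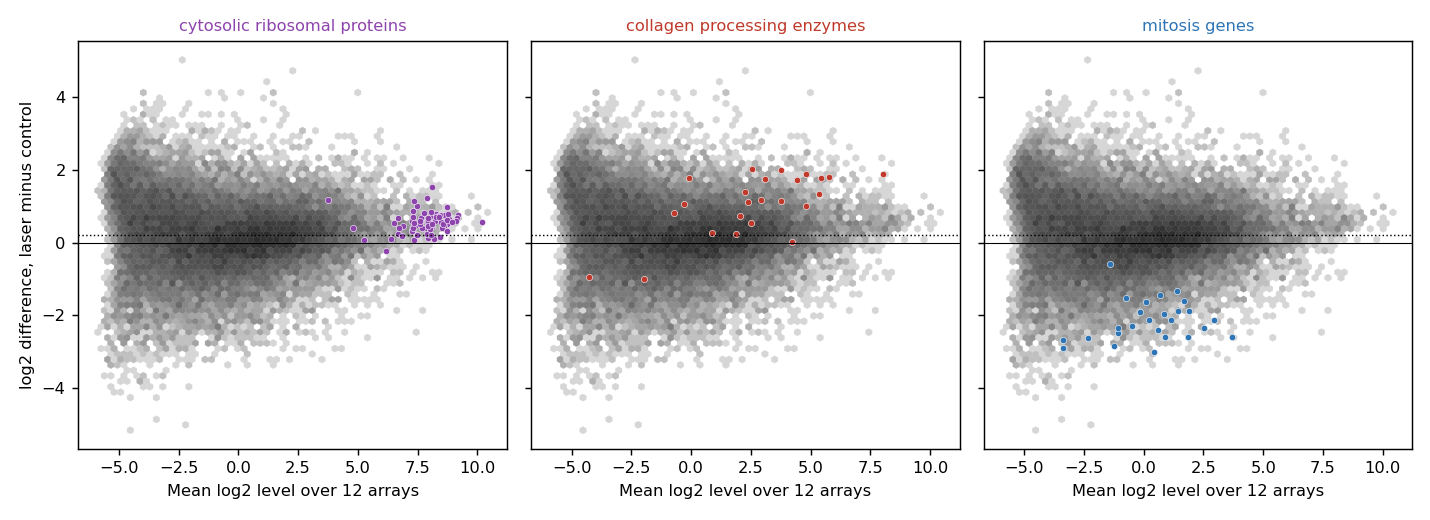
Log2 difference, laser minus control, against the mean log2 level over 12 arrays for all 22914 genes (grey, darker where denser on a log scale), with the members of 3 lists in colour. The dotted line is the median of all genes, 0.21, and ribosomal protein genes lie at the bright end with a median of 0.57.

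Genes of energy and sterol metabolism gave values that changed with the scaling. Of 24 glycolysis and hypoxia genes 3 were higher and 10 lower (median -0.37). Hk1, the hexokinase of red cells and many tissues, fell 2.70-fold (laser -1.67 to -0.88, control -0.10 to 0.37), and Eno1, an enolase, 1.69-fold with 2 further probes also lower, while Pgk1 overlapped (difference 0.12, SE 0.14). Without control replicate 4, 6 glycolysis genes were higher, and without laser replicate 1 or 3 or control replicate 1, 2 or 3, 1 was. Of 49 respiratory chain genes 15 were higher (30.6%) and 8 lower (16.3%), near the 32.2% and 17.6% of all genes. Their median was 0.17, but -0.09 with quantile normalization and -0.15 on the deposited normalized values. Ndufa1, a subunit of complex I, was 2.46-fold higher, and Atp5f1b, a subunit of ATP synthase, 2.43-fold lower. The number lower was 3 or 4 without laser replicate 1, 2 or 4 or control replicate 2, 3 or 4. Of 31 proteasome subunits 6 were higher (19.4%) and 4 lower (12.9%), both below the shares of all genes. Their median was 0.21, but -0.08 and -0.14 under the same 2 alternatives. Psma2 was 1.64-fold higher and Psmd14 1.69-fold lower. Without control replicate 2, 2 subunits were lower.

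Cholesterol synthesis genes had 2 of 20 higher and 8 lower (median -0.24). Msmo1, a methylsterol oxidase, was 1.80-fold higher. Of 12 housekeeping genes 1 was higher and 4 lower (median -0.15), or 9 lower with quantile normalization and on the deposited normalized values. Gusb, beta-glucuronidase, was 1.70-fold lower.

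Channels and receptors that sense heat, pressure and ATP were included as well. Whether heat or pressure reached the cells was not tested. Of 13 thermosensitive and mechanosensitive channels 6 were higher and 2 lower (median 0.52), or 3 higher without laser replicate 1 or 3 or control replicate 2. Trpm8, a cold-activated channel, was 6.33-fold higher, with levels of -0.64, -0.98, -1.93 and -1.43 against -4.44 to -2.78, and its difference of 2.66 was 1.71 on the deposited normalized values and 1.03 with normexp. Tmem63a, a mechanosensitive channel, was 1.64-fold lower. Of 16 purinergic receptors and ectoenzymes 2 were higher and 7 lower (median -0.13, or -0.24 to -0.06 with 1 array left out). P2rx4, an ATP-gated channel, was 2.47-fold lower (laser -2.06 to -1.73, control -0.77 to -0.34). Adora3, an adenosine receptor, was among the 12 largest rises of genes with an official symbol measured on all 8 arrays without overlap. Its levels were 2.49, 0.68, 0.15 and -0.33 on laser arrays against -3.96 to -2.79 on control arrays. Its difference of 4.07 (SE 0.75) was 4.90 with laser replicates 1 and 2 alone, 3.23 with replicates 3 and 4 alone, 3.16 on the deposited normalized values and 2.47 with normexp.

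Among genes measured on all 8 arrays without overlap, Hspa1a rose most and was followed by Ugt2a1, a UDP-glucuronosyltransferase of the olfactory epithelium. Ugt2a1 had laser levels of 5.18, 2.93, 1.86 and 1.48 and control levels of -1.09, -2.11, -2.03 and -1.12, a difference of 4.45 (SE 0.83). Laser replicate 1 was the highest, and the difference was 3.68 without it, 5.64 with laser replicates 1 and 2 alone, 3.26 with replicates 3 and 4 alone and 3.72 with normexp. Amer1, which scaffolds the beta-catenin destruction complex (probe on RGSCv3.4 chromosome X, 82986084 to 82986143), had laser levels of 4.36, 2.97, 2.47 and 3.13 and control levels of -0.73, -0.92, -1.14 and -1.08. The nearest values of the groups lay more than 3 apart on the log2 scale, and the difference was 4.20 (SE 0.50, limma adjusted p = 0.000197). Adam7, a metalloproteinase-like membrane protein of the epididymis, rose 17.1-fold and Ica1l, a relative of an islet cell autoantigen, 15.5-fold, with differences of 3.12 and 3.30 with normexp. Jaml, an adhesion molecule of leukocytes, rose 12.99-fold.

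On the other side, Ucp2, a mitochondrial carrier expressed in blood cells, had laser levels of -1.02, 0.64, 0.83 and 0.41 and control levels of 3.06, 3.70, 3.39 and 3.61. Replicate 1 was again the lowest laser array, and the fall was 3.22 on the log2 scale (SE 0.41, limma adjusted p = 0.000255). Aqp3, a water and glycerol channel of red cells and epithelia, stood at -4.28, 0.42, 0.71 and 0.14 on laser arrays and 2.18 to 3.23 on control arrays. Its difference of -3.42 (SE 1.001) became -2.24 without laser replicate 1, and it was -4.60 with laser replicates 1 and 2 alone, -2.24 with replicates 3 and 4 alone and -2.69 with normexp.

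Set against bur-drilled bone in the same fit, laser-ablated bone differed in 1 of 22914 genes (0.00436%), Hspa1a. The median difference from bur was 0.09 for osteocyte genes, 0.18 for osteoblast factors, 0.22 for collagen processing enzymes, 0.23 for heat shock genes, 0.06 for erythroid genes and 0.13 for mitosis genes, where the median difference from control was 1.70, 0.97, 1.16, 0.53, -2.75 and -2.22. Over all 57 lists the median difference from bur ran from -0.57 for neuron genes to 0.38 for granulocyte precursors, with -0.38 for IGF genes and -0.36 for collagen chains. These 2 comparisons share the laser arrays. Laser and bur arrays also shared slides and scans, and their raw spike-in log2 signals were 3.47 and 3.51 above control. The comparison with control alone sets different slides and scans against each other, and their part was not tested. That most differences from bur did not pass does not show that the 2 ways of cutting act alike. Besides Hspa1a, the differences from bur were 1.93 for Dmp1, 1.57 for Hsph1, 1.34 for Egr1 and 1.15 for Spry1, with limma adjusted p of 0.114, 0.117, 0.126 and 0.408. Tnfrsf11b was 1.14 higher than in bur-drilled bone (SE 0.34, adjusted p = 0.565), at 1.51, 2.19, 1.80 and 2.67 on the bur arrays. The number of genes passing was 0 without laser replicate 3, without control replicate 3 or without any 1 of the 4 bur arrays, and 0 with the mean of a gene's probes. It was 2 with an intensity trend and 5 with normexp.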

How the data were processed

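Each of the 12 samples was labelled from 200 ng of RNA and hybridised to its own one-colour array. Per the file headers, spots were read with Agilent Feature Extraction 11.0.1.1, and the deposited processed signal is a linear intensity with background subtracted; the probe coordinates are those of RGSCv3.4. Log2 values that the authors quantile-normalized were deposited as a table, and another table, of this comparison, gives log2 fold changes and p-values from a model the sources do not name. It holds 24920 probes, of which 12609 have an adjusted p under 0.05.

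Control spots were left out, log2 intensities were scaled to each array's 75th percentile, and limma 3.58.1 in R 4.3.3 was fitted to all 12 arrays with 3 group means. Probes were named by accession (46.5%), or else by symbol, synonym or the file's name, with the RefSeq table of GRCr8. Of 5464 genes with several probes, 236 had probes that passed in opposite directions. The lists hold 1079 symbols, of which 1022 were measured. The number of arrays limits precision. The script was tested on simulated data.

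The members, lists and rule for named genes were chosen with earlier results of these data known. The rule takes Sost, 12 genes that rose and 12 that fell by the most among those measured on all 8 arrays without overlap, and from each list its 2 brightest members, up to 3 with the smallest adjusted p and its largest rise and fall. It names 314 genes, of which 130 are described; the others were left out after their values were seen, many because a setting changed their call or size, and some are not reported here. Hsph1 was named after its values were seen. Alternatives covered scaling, background, filter, probes per gene, samples, batch, variance model and single arrays; leaving out bur arrays was added after seeing the data. In the report, a list's counts without 1 array are given where they moved by over 1.5 times and the larger count was at least 3.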

Additional observations from a re-analysis of the deposited data

Results flagged for a closer look

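In 376 groups of 4 arrays, formed by the described genes and the list medians on laser or control arrays, 27 (7.18%) had 1 array far from the other 3, where chance gives about 5%. Laser replicate 1 was the low array for Rrm2 (level 2.21), Mcm6 (-2.23), Mki67 (0.73), Top2a (-2.14), Alad (3.83), Uros (-1.25), Cd22 (2.27) and Aqp3 (-4.28), and for the median levels of mitosis genes (-1.75) and of platelet and megakaryocyte genes (-1.60). It was the high array for Ica1l (3.23). Genes of one cell type share an array's deviation, so these are not separate signs.

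Laser replicate 2 stood apart as high for Enpp1 (3.30) and low for Ccnd1 (1.58) and Fap (3.19). Laser replicate 3 was high for Bmal1 (-2.14) and the median of proteasome subunits (3.91) and low for the median of thermosensitive and mechanosensitive channels (-0.53). Laser replicate 4 was low for Psma2 (2.62) and the median of NF-kB and SOCS feedback genes (-0.82). Its median levels also lay below all control arrays for IGF genes (1.53), Wnt antagonists (0.42) and chemokines (0.23). The same held for periosteal and fibroblast genes (0.97) and smooth muscle and pericyte genes (-0.90). The median differences of these lists from control were nevertheless positive.

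Among the controls, replicate 1 was high for Bglap (9.64), Trpm8 (-2.78) and the median of chemokines (1.27). Control replicate 2 was high for Stip1 (0.64), Ptgs1 (2.32) and Sox6 (1.29) and low for the median of T and NK cell genes (-1.04). Control replicate 3 was high for Tmem63a (0.51).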

How the results depend on the processing

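The counts of genes that were higher or lower stayed within 1.5 times of 7379 and 4030 under every alternative run except 2. With a minimum log2 fold change of 1 tested by limma, 321 genes passed, 273 higher and 48 lower, 0 lists had most members higher or lower, 0 genes differed from bur, and Sost had a difference of -0.80 with an adjusted p of 1. With the treated arrays of laser replicates 3 and 4 alone, 2588 were lower, 7 lists had most members higher and 7 lower, and 0 genes differed from bur. Leaving out 1 array gave 5990 to 7680 genes higher, 3059 to 4212 lower, 9154 to 11892 in all, 0 to 1 differing from bur, 7 to 13 lists mostly higher, 7 to 14 mostly lower and Sost differences of -0.99 to -0.61. Lists mostly higher numbered 7 with quantile normalization, on the deposited normalized values and with slide as a random block, which also gave 7 lists mostly lower. The limma adjusted p of Sost was 0.114 with normexp (-0.37), 0.0888 on the deposited normalized values (-0.48), 0.0677 without a filter (-0.80), 0.106 with the slide block (-0.80) and 0.247 with laser replicates 1 and 2 alone (-0.62). Genes differing from bur numbered 5 with normexp, 2 with an intensity trend, and 0 with the mean of a gene's probes or with laser replicates 1 and 2 alone. The median of respiratory chain genes turned to -0.0926 with quantile normalization and -0.151 on the deposited normalized values, that of proteasome subunits to -0.0805 and -0.142, and that of p53 targets ran from -0.00861 without control replicate 2 to 0.172 without control replicate 3. Other scalings put 55.4% to 58.0% of the calls on the higher side, against 64.7%. The replicate number as a block gave 8057 genes higher, 4456 lower and an adjusted p of 0.00942 for Sost. Whether samples were paired by number is not settled by these values. Each array's deviations from its group mean were correlated over genes between laser and control. For same-numbered arrays the correlations of these deviations were 0.39, 0.09, 0.14 and 0.11. Laser replicates 1, 2 and 3 correlated best with the control of their own number and laser replicate 4 with control replicate 3 (0.20). The cause of these shifts was not tested.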
